A study of Mus musculus with 12 samples.

Results

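The acyl-CoA thioesterases described here are 10 enzymes, Acot1, Acot2, Acot3, Acot4, Acot7, Acot8, Acot9, Acot11, Acot13 and Them4, among the 54949 features of a count table of mouse ventricle. They were picked by symbol, from a list drawn up with the fold changes of this same comparison known, so their fold changes and calls are a description and carry no test of the family. RNA was selected for poly-A tails and sequenced in bulk from ventricles with the atria removed, in 12 libraries of WT male C57BL/6N mice. The mice were 8 weeks old when the protocol began and were kept on it for 5 weeks. One arm of the study ate a high-fat diet and drank L-NAME, which blocks nitric oxide synthase, at 0.5 g/L in water; the labels call it HFpEF, heart failure in which the ejection fraction is preserved. The other arm had normal diet and water.

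The labels contradict each other about the arms. Library names place 6 libraries under con and 6 under HF, while titles and treatment entries give HFpEF treatment for the con-named libraries and normal diet for the HF-named ones. The names con-named and HF-named are used below for that reason, and which group was treated cannot be told from the labels. The labels do not say that each library is a separate mouse, and the design text speaks of 5 bulk samples per group, and p-values here reflect only how far these libraries spread, which may be technical. Assigned counts per library ran from 14443186 to 22048689. In bulk tissue, fewer cells of a type and less RNA per cell cannot be told apart.

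Acyl-CoA thioesterases cut the thioester bond of a fatty acyl-CoA and release a free fatty acid and coenzyme A (CoA). They act against the acyl-CoA synthetases, which make acyl-CoA, and they return CoA in compartments whose CoA supply is limited. Type I enzymes (Acot1 to Acot6 in the mouse) share an α/β-hydrolase fold and differ mainly in where they are sent in the cell. Type II enzymes (Acot7, Acot8, Acot9, Acot11, Acot13 and Them4) share the unrelated hotdog fold. In heart and liver, Acot1 and Acot2 are known targets of the fatty acid receptor PPARα.

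The type I members lay in a single tandem cluster on chromosome 12 (GRCm38). Acot2 (ENSMUSG00000021226) occupied chr12:83987861-83993873, Acot1 (ENSMUSG00000072949) chr12:84009490-84018371, Acot4 chr12:84038379-84048601 and Acot3 chr12:84052144-84060402. With Acot5 and Acot6 after them, the cluster spanned 123.5 kb, and all these genes were on the plus strand. The type II members were scattered. Acot7 was at chr4:152178134-152271855 and Acot11 at chr4:106744555-106804998. Acot8 was at chr2:164792765-164804882, Acot9 at chrX:155262443-155297654, Acot13 at chr13:24817948-24831540 and Them4 at chr3:94310089-94332540. All 10 were annotated as protein coding.

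Acot1 and Acot2 were 95.3% identical over 1236 aligned coding bases, whereas every other pair of Acot1 to Acot4 was between 74.2% and 83.9% identical. The alignment left the first 123 coding bases of Acot2 with no counterpart in Acot1. Acot2 is the mitochondrial enzyme, and an N-terminal extension of this kind is where a mitochondrial import signal sits. The coding starts are shown because this extension is the main difference between a cytosolic and a mitochondrial enzyme of nearly the same body; capitals mark the first codon of each stretch.

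Acot1, coding start: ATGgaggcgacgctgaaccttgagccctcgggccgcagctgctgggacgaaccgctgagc
Acot2, coding start: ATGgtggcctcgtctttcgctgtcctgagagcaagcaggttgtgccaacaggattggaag
Acot2, where Acot1 begins to align: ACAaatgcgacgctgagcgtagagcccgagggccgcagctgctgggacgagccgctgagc

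Both Acot2 stretches come from 1 transcript, and only the later one resembles the start of Acot1. The coding ends are shown because many peroxisomal enzymes carry their import signal in the last 3 codons. These codons are in capitals and the stop codon follows in lower case.

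Acot1, coding end: gagtgtttgcatgtgtctCCTAAAATAtaa
Acot2, coding end: ttccacaaacagttgggtAGCAAGAGTtag
Acot3, coding end: aaaaagaagacaatcccaGCAAAACTGtga
Acot4, coding end: acccacagcagagcctccTGTAGACTGtag
Acot8, coding end: aagcctcaggtgtcagagAGTAAGCTAtag

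The peroxisomal members Acot3 and Acot4 both closed with CTG and the peroxisomal Acot8 with CTA. The cytosolic Acot1 closed with ATA and the mitochondrial Acot2 with AGT. Among the members not shown, the cytosolic Acot11 closed with CTC, so a last codon that begins with CT was not limited to the peroxisomal members. The near identity of Acot1 and Acot2 bears on their counts, since a read from a shared stretch cannot be placed on 1 gene alone. Windows of exon bases were compared only among the 10 members, Acot5 and Acot6. Of all windows of 50 bases in Acot1 exons, 18.4% occurred in another gene of this set, and 6.9% did at 150 bases. For Acot2 these shares were 27.6% and 10.2%. Acot3 had 7.6% and Acot4 4.2% at 50 bases, and the other 6 members shared none within this set at any length tried. Genes and pseudogenes outside the set were not searched, so whether reads of those 6 members can be placed on 1 gene was not tested. How the authors' counting treated such reads is not given in the sources used here.

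Promoters are shown for Acot1 and Acot2, which were higher together, and for Acot4, their neighbour, which was not called. Acot4 also leaned higher in the HF-named libraries, short of the threshold, so it is not an unchanged contrast. Each is the 250 bases before the start site, from RefSeq (GRCm38.p6), which held 9 of the 10 members, with no entry for Acot13. Capitals mark matches to AGGTCA (the core of nuclear receptor sites), to TATAAA (the TATA box) and to CCAAT (the CCAAT box), each on either strand.

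Acot1 upstream, chr12:84009252-84009501, plus strand: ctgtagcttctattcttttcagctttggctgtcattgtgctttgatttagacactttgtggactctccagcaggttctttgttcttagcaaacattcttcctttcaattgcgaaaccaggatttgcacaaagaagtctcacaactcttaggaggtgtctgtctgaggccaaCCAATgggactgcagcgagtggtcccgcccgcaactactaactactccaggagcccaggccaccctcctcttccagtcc
Acot2 upstream, chr12:83987611-83987860, plus strand: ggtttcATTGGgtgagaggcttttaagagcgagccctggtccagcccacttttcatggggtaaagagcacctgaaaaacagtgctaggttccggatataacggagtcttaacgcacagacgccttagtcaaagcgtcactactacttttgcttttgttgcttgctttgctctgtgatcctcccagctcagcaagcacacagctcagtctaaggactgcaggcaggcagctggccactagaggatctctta
Acot4 upstream, chr12:84038129-84038378, plus strand: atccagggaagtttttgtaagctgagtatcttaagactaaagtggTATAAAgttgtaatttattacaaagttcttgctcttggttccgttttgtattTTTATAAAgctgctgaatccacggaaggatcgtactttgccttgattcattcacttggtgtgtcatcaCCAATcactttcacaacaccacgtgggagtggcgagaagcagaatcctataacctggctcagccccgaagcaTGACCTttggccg

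AGGTCA is the core letters bound by PPARα and other nuclear receptors. Searched on both strands from 250 bases before to 50 after the start, it matched in neither the Acot1 nor the Acot2 window, and it matched in 16.3% of 32851 promoters of the same length. Acot4 held it at position -13 from the start, on the minus strand, and Acot3 held it once, after the start. The paired form AGGTCANAGGTCA, found in 0.0396% of promoters, matched in no member. When up to 2 of its 12 fixed letters could differ, a search chosen after the sequences were seen, Acot4 alone among the 9 matched, with CGGCCAAAGGTCA, against 3.86% of all promoters. CCAAT, held by 37.4% of promoters, occurred once in Acot1, at position -79 from the start, and once in Acot2, at -244 on the minus strand. TATAAA, in 13.6% of promoters, was in neither and occurred 3 times in Acot4. A match is a run of letters, not a shown binding site, and these windows say nothing of sites elsewhere.

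Levels below are CPM, the counts of a gene relative to the total of its library, scaled between libraries by edgeR's TMM factors. Fold changes are log2 of HF-named over con-named, from edgeR's quasi-likelihood test, and a gene was called at a Benjamini-Hochberg adjusted p under 0.05 over the 15114 features that passed the low-count filter. All 10 members passed that filter. Acot1 and Acot2 were called, both higher in the HF-named libraries, so 2 of 10 members were called, beside 13.3% of all tested features (8.28% higher and 5.05% lower). At an unadjusted p under 0.05, edgeR placed 4 members higher and 1 lower, and limma-voom and DESeq2 each called 2 higher and 0 lower. Over all features, limma-voom called 1269 higher and 793 lower, and DESeq2 1440 higher and 920 lower. No share of all tested features is given for the unadjusted counts, here or below, so nothing is read from them. Only Acot2 had CPM ranges that did not overlap, beside 5.36% of all tested features (3.41% higher and 1.95% lower). Because the members were listed with this comparison known, nothing is read from these shares.

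**Figure D1:**
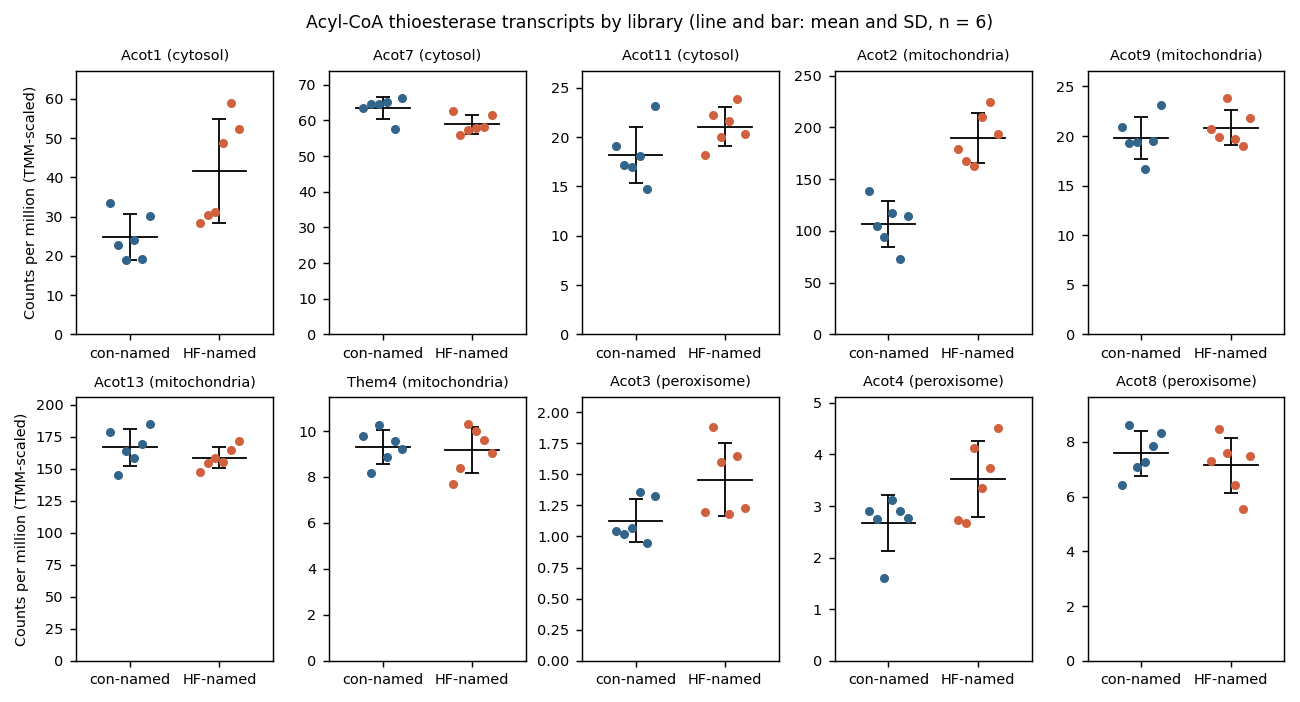
CPM of each member in every library, con-named in blue and HF-named in orange, with the mean and SD of 6 libraries as line and bar and the compartment in brackets; each axis starts at 0. The groups separate fully for Acot2, whose highest con-named library is at 138.4 and lowest HF-named library at 163.0, and they overlap for the other 9.

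In the mitochondria, Acot2, which releases long-chain fatty acids and CoA in the matrix, had the clearest separation. Its con-named libraries ran from 72.9 through a median of 109.4 to 138.4 CPM, and its HF-named libraries from 163.0 through 186.7 to 224.2 CPM. All 6 HF-named libraries lay above all 6 con-named ones. Means were 107 ± 22.3 (SD, n = 6) and 189.8 ± 24.2 CPM (SD, n = 6), a log2 fold change of 0.83 with a standard error of 0.12 and a 95% interval of 0.57 to 1.08, or 1.78-fold.

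The other mitochondrial members stayed near 0 on the log2 scale. Acot13 (Them2), a small hotdog-fold thioesterase associated with mitochondria, ran from 144.9 through 166.6 to 185.5 CPM in con-named and from 147.7 through 156.7 to 171.6 CPM in HF-named libraries. These ranges overlapped almost completely, and the log2 fold change was -0.07 (95% interval -0.20 to 0.05). Acot9, the type II enzyme of the mitochondrial interior, spanned 16.6 to 23.1 CPM and 19.0 to 23.8 CPM, with a log2 fold change of 0.07 (-0.09 to 0.23). Them4, also described as a regulator of the kinase Akt, spanned 8.18 to 10.3 CPM and 7.71 to 10.3 CPM, with a log2 fold change of -0.02 (-0.20 to 0.16). So the mitochondrial members held 1 called gene and 3 whose intervals included 0.

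In the cytosol, Acot1, the long-chain enzyme closest in sequence to Acot2, ran from 19.0 through 23.5 to 33.6 CPM in con-named and from 28.3 through 40.0 to 59.1 CPM in HF-named libraries. The HF-named libraries fell apart into 2 levels. Replicates 1, 2 and 3 held 28.3, 30.5 and 31.1 CPM, inside the con-named range, and replicates 4, 5 and 6 held 48.8, 59.1 and 52.4 CPM, above every con-named library. Means were 24.8 ± 5.90 and 41.7 ± 13.3 CPM (SD, n = 6 each). The log2 fold change was 0.76 with a standard error of 0.19 and a 95% interval of 0.359 to 1.1525, or 1.69-fold. HF-named replicates 4, 5 and 6 were also the deepest of their group, with 18105305, 19524483 and 22048689 counts against 14443186 to 15150318 in replicates 1, 2 and 3; the part of depth in the Acot1 values was not tested.

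Acot7, a cytosolic long-chain enzyme best known from neurons, leaned the other way. It ran from 57.6 through 64.6 to 66.3 CPM in con-named and from 55.99 through 58.0 to 62.7 CPM in HF-named libraries, and 5 of the con-named libraries exceeded the highest HF-named one. Its log2 fold change was -0.11 (95% interval -0.21 to -0.01), and it was not called. Acot11 (Them1), a thioesterase with a lipid-binding START domain known from brown fat, ran from 14.7 through 17.6 to 23.1 CPM and from 18.2 through 21.0 to 23.8 CPM, with overlapping groups. Its log2 fold change was 0.21 (0.02 to 0.41), and it was not called. Acot11 shares 20.86% of its exon bases with Fam151a on the opposite strand, but Fam151a held at most a mean of 0.0872 CPM in either group.

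Among the peroxisomal members, Acot3, a long-chain enzyme, was the least abundant, with 16 to 29 counts per library, 0.947 to 1.36 CPM in con-named and 1.18 to 1.88 CPM in HF-named libraries. Acot4, which acts on succinyl-CoA and other dicarboxylyl-CoAs, ran from 1.601 through 2.83 to 3.13 CPM and from 2.68 through 3.55 to 4.51 CPM, and 4 of the HF-named libraries exceeded the highest con-named one. The log2 fold changes were 0.36 for Acot3 (95% interval -0.02 to 0.74) and 0.40 for Acot4 (0.04 to 0.75). Neither was called. Acot8, a broad-range peroxisomal enzyme, spanned 6.43 to 8.61 CPM and 5.56 to 8.48 CPM, with a log2 fold change of -0.09 (-0.32 to 0.13).

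Acot3 and Acot4 overlap 4732463B04Rik on the opposite strand, over 9.08% and 9.21% of their exon bases, and Acot3 shares 11.52% with Gm49366 on its own strand. 4732463B04Rik held 0.536 ± 0.212 and 0.622 ± 0.192 CPM (SD, n = 6 each) and Gm49366 had 0 counts in every library. Acot8 shares 12.32% with Snx21, a more abundant gene at 21.6 ± 1.53 and 24.3 ± 2.40 CPM (SD, n = 6 each), so the low Acot8 values are uncertain. The library protocol names no step that marks strand.

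**Figure D2:**
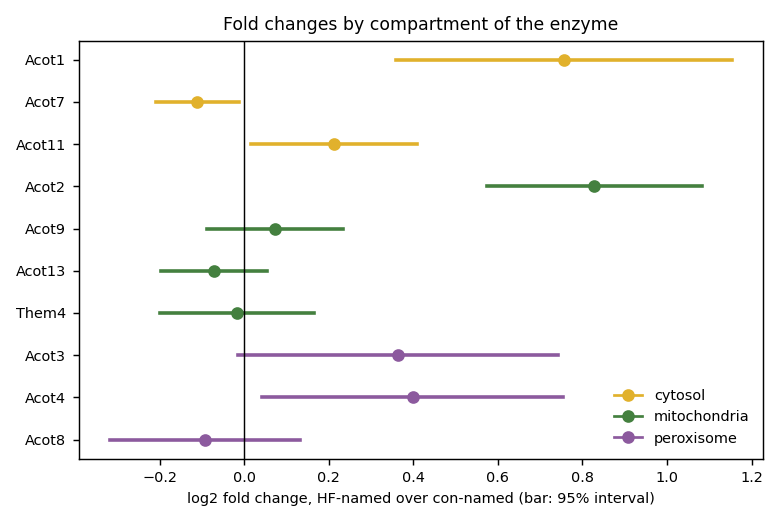
Log2 fold change of each member, HF-named over con-named, with its 95% interval and coloured by compartment. The called genes Acot1 at 0.76 and Acot2 at 0.83 lie furthest to the right, and they belong to different compartments.

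Genes around the clustered members were not called. Within 100 kb on either side, 0 of the 6 tested genes outside the members were called by edgeR, limma-voom or DESeq2, and 0 had an unadjusted edgeR p under 0.05. Over all tested features edgeR called 13.3%, so 0 of 6 is close to that share and is not read as a trait of the region. Acot6, the next type I gene along, stood at 0.10 on the log2 scale, Dnal1 at 0.05, Elmsan1 at -0.06, Numb at -0.01, Riox1 at -0.31 and 4732463B04Rik at 0.26. Acot5 had 0 counts in all 12 libraries.

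Levels between genes were compared as CPM per kilobase of exon. Acot13, with only 744 exon bases, led at 224.4 ± 19.6 in con-named libraries (SD, n = 6), followed by Acot2 at 48.7 ± 10.1 and Acot7 at 30.0 ± 1.45. Acot9 stood at 8.72 ± 0.938 and Acot1 at 6.33 ± 1.51, and their ranges overlapped. Acot8 at 3.80 ± 0.410, Acot11 at 3.004 ± 0.465 and Them4 at 2.31 ± 0.184 followed, each overlapping the next. Acot4 at 0.401 ± 0.0814 and Acot3 at 0.328 ± 0.0499 closed the order and overlapped too. In HF-named libraries Acot11 and Them4 did not overlap, and Acot1 at 10.6 ± 3.39 stood above Acot9 at 9.17 ± 0.773, again with overlap. With the length of the longest coding transcript in place of all exon bases, Acot2 and Acot7 also overlapped in con-named libraries. With the authors' deposited FPKM the order of con-named means was the same, but Acot11 (lowest 2.65) and Them4 (highest 2.61) did not overlap in con-named libraries either, so their overlap depends on the scale.

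Summed per kilobase of exon, the mitochondrial members made up most of the family's level in both groups, 86.6 ± 0.850% and 87.0 ± 0.266% (SD, n = 6 each). What differed was the mix within them. Acot13 held 65.5% to 73.2% of the summed level of all 10 in con-named and 57.5% to 62.0% in HF-named libraries, while Acot2 held 10.7% to 17.5% and 21.7% to 26.5%. Neither pair of ranges overlapped. The level of Acot13 itself overlapped between groups, so its lower share goes with the higher Acot2 in the sum. The ratio of Acot13 to Acot2 per kilobase was 4.78 ± 1.14 and 2.50 ± 0.287 (SD, n = 6 each). The cytosolic members summed to 39.3 ± 2.92 and 41.8 ± 3.76 and the peroxisomal ones to 4.53 ± 0.438 and 4.53 ± 0.522 CPM per kilobase (SD, n = 6 each).

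**Figure D3:**
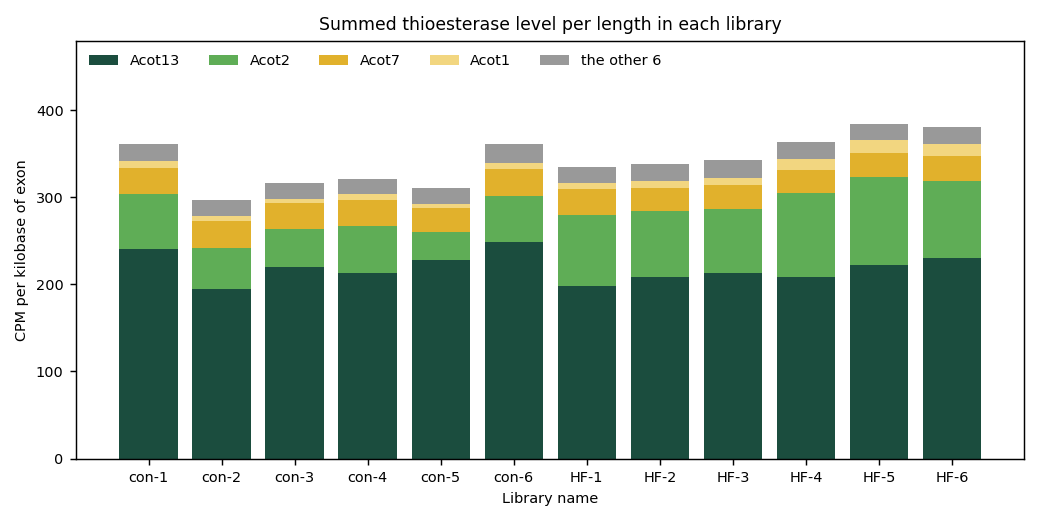
CPM per kilobase of exon, stacked over the members, for each of the 12 libraries. The total ranges from 297.1 to 384.8, and the Acot2 layer is thicker in every HF-named library than in any con-named one.

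Acot1 and Acot2 were positively correlated between libraries of the same group, though not past the adjusted threshold. Within the con-named libraries, Pearson's r of their log2 CPM was 0.86 (exact permutation p = 0.0194, n = 6) and Spearman's rho was 0.89 (exact permutation p = 0.0333). Leaving out the 2 libraries farthest from the median left r at 0.81. Within the HF-named libraries r was 0.89 (exact permutation p = 0.0431, n = 6) and rho 0.71 (exact permutation p = 0.136), with r at 0.83 after leaving out 2 libraries. Over the 82 relations computed, the Benjamini-Hochberg adjusted values were 0.0839 and 0.0968, and none of the 82 was under 0.05. With 6 libraries the test of rho cannot give a p below 0.00278. The test of r has a lower floor, set by the number of pairings of 6 libraries. A relation at either floor could pass the adjusted threshold only together with others. Missing the adjusted threshold therefore says little, here and below. Reads from their shared stretches can move the pair together, and the part of such reads was not tested. The ratio of Acot2 to Acot1 counts ran from 3.78 to 4.95 in con-named and from 3.70 to 6.34 in HF-named libraries, highest in HF-named replicate 1.

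Pdk4, a kinase that restrains pyruvate dehydrogenase and a known PPARα target, was named here after its values were seen. Its correlation with Acot1 within each group was positive and also missed the adjusted threshold, with r of 0.92 in con-named (exact permutation p = 0.0139, rho 0.94, exact permutation p = 0.0167, n = 6) and 0.94 in HF-named libraries (exact permutation p = 0.0236, rho 0.94, exact permutation p = 0.0167, n = 6). Without the 2 farthest libraries r was 0.79 and 0.90, and the adjusted values over the 82 relations were 0.0839 and 0.0882. Yet Pdk4 was not called between groups, at 991 ± 334 and 1103 ± 291 CPM (SD, n = 6 each), with a difference of 0.15 on the log2 scale (edgeR adjusted p = 0.658). HF-named replicates 4, 5 and 6 held 1227, 1340 and 1486 CPM of Pdk4. Replicates 1, 2 and 3 held 793.7, 797.3 and 973.7 CPM, the same split as for Acot1. The split was not limited to Acot1 and Pdk4. Acot2 held 210.5, 224.2 and 193.9 CPM in HF-named replicates 4, 5 and 6. In replicates 1, 2 and 3 it held 179.6, 167.8 and 163.0 CPM. Nor was Pdk4 the PPARα target closest to Acot1, since Mlycd had r of 0.97 with Acot1 in each group.

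**Figure D4:**
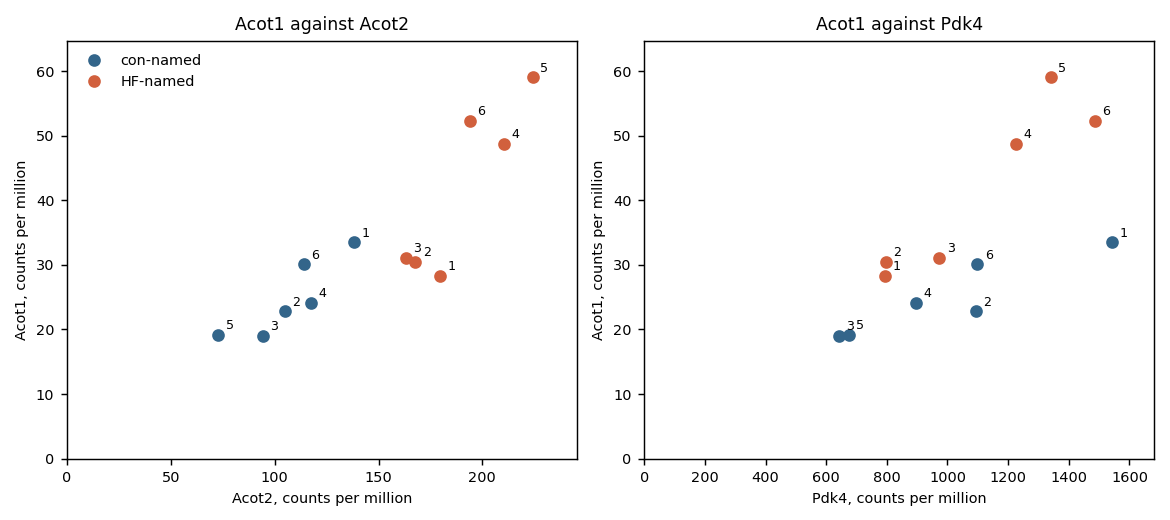
CPM of Acot1 against Acot2 (left) and Pdk4 (right) in the 12 libraries, numbered by replicate, con-named in blue and HF-named in orange. HF-named replicates 4, 5 and 6 stand highest for Acot1 in both panels, and con-named replicate 1 has the most Pdk4, at 1542 CPM.

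By the rule set for likeness, the 5 genes outside the family with the highest r to Acot2 over all 12 libraries, among 13861 with a mean of at least 1 CPM, were Me1, Cat, Ephx2, Tax1bp1 and Etfdh. Me1, the cytosolic malic enzyme, had r of 0.987, and Cat, the catalase of peroxisomes, 0.978. Ephx2, the soluble epoxide hydrolase, had 0.973, Tax1bp1, an autophagy receptor, 0.970, and Etfdh, which passes electrons from fatty acid oxidation to ubiquinone, 0.963. Part of each value comes from the difference between groups. For deviations from the group means r was 0.946 for Me1, 0.952 for Cat, 0.898 for Ephx2, 0.874 for Tax1bp1 and 0.887 for Etfdh. The genes were picked by an r that holds these deviations too, so these values are no separate check.

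Genes around the thioesterases in the same chemistry were read from the same fit. The counts of called genes below stand beside 8.28% of all tested features called higher by edgeR and 5.05% called lower. The lists of PPARα targets and of carnitine genes share Slc25a20, the carnitine carrier, and Cpt1b, the muscle carnitine palmitoyltransferase; each counts in both lists. Slc25a20 was called higher, so the lists together hold 17 different called genes. Of the 20 PPARα targets listed, all tested, 11 were called higher and 0 lower, with a median log2 fold change of 0.31 beside -0.01 for all tested features. Decr1, which handles unsaturated acyl-CoAs, stood at 0.51 (edgeR adjusted p = 0.000996) and Acadvl, the very-long-chain acyl-CoA dehydrogenase, at 0.43 (edgeR adjusted p = 0.00153). At an unadjusted p under 0.05, edgeR had 13 higher and 0 lower, and limma-voom and DESeq2 each called 11 higher and 0 lower.

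Of 12 tested genes that bind acyl-CoA or move it as carnitine ester, 4 were called higher and 0 lower, with a median of 0.19. Cpt2, which rebuilds acyl-CoA inside mitochondria, stood at 0.45 (edgeR adjusted p = 0.00219), Crat, the carnitine acetyltransferase, at 0.35 (edgeR adjusted p = 0.00579) and Dbi, the acyl-CoA binding protein, at 0.37 (edgeR adjusted p = 0.00713). At an unadjusted p under 0.05, edgeR had 6 higher and 2 lower, limma-voom called 4 higher and 0 lower and DESeq2 6 higher and 0 lower.

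Of 14 tested acyl-CoA synthetases, which run the reverse reaction, 2 were called higher and 0 lower, with a median of 0.02. Such a count is close to the 8.28% of all tested features called higher. Acsf2 stood at 42.1 ± 6.14 CPM in con-named and 65.3 ± 8.76 CPM in HF-named libraries (SD, n = 6 each, log2 0.63, edgeR adjusted p = 0.00117). Acsl1, the main long-chain synthetase of heart, stood at 800.1 ± 83.3 and 1077 ± 141 CPM (SD, n = 6 each, log2 0.43, edgeR adjusted p = 0.00604). At an unadjusted p under 0.05, edgeR had 5 higher and 1 lower, limma-voom called 2 higher and 0 lower and DESeq2 3 higher and 0 lower. Of 15 tested genes of CoA synthesis and breakdown, 1 was called higher and 0 lower, with a median of 0.02. That count is also close to the 8.28% of all tested features. The called gene was Pank4, of the pantothenate kinase family, at 0.18 (edgeR adjusted p = 0.0331). At an unadjusted p under 0.05, edgeR had 3 higher and 2 lower, and limma-voom and DESeq2 each called 1 higher and 0 lower.

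Thioesterases outside the 10 were not called. Of 13 listed, 6 were tested, with 0 called in either direction by edgeR, limma-voom and DESeq2, and with 0 higher and 1 lower at an unadjusted edgeR p under 0.05. Over all tested features edgeR called 13.3%, so 0 of 6 is close to that share and is not read as a trait of these genes. Log2 fold changes were -0.27 for Them6, -0.10 for Abhd17a, 0.07 for Ppt1, -0.32 for Lyplal1, 0.10 for Acot6 and -0.03 for Ppt2, with a median of -0.07.

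**Figure D5:**
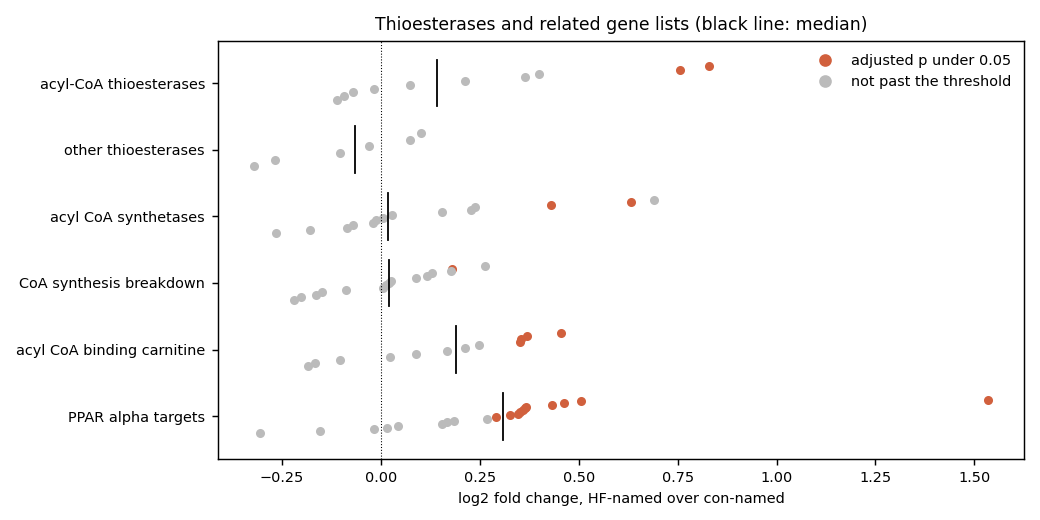
Log2 fold changes, HF-named over con-named, of the 10 thioesterases and of each related list, 1 dot a gene, orange where the adjusted p was under 0.05, with the list median as a black line. The PPARα targets have a median of 0.31 and 11 called genes of 20, and the other thioesterases a median of -0.07 and none.

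Within groups, r between the PPARα targets and Acot1 or Acot2 was mostly positive, but by the exact permutation test 0 of 20 targets passed an adjusted p of 0.05 with either gene in either group. With Acot1, r ran from 0.03 to 0.97 in the con-named libraries (median 0.82, 20 of 20 positive, beside 48.8% of all other tested features). In the HF-named libraries it ran from 0.22 to 0.98 (median 0.79, 20 of 20 positive, beside 53.5%). With Acot2, r ran from -0.01 to 0.94 in con-named libraries (median 0.85, 19 of 20 positive, beside 48.4%) and from -0.15 to 0.93 in HF-named ones (median 0.73, 19 of 20 positive, beside 52.9%). For deviations from group means over the 12 libraries, 15 of 20 targets had r of at least 0.7 with Acot1, beside 2.51% of all other tested features, and 12 of 20 had it with Acot2, beside 3.08%. These targets share pathways and libraries, so they are not independent of each other. The features set beside them were not matched to them in abundance, and the part of abundance in these shares was not tested.

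Markers of the cells in the tissue differed between the groups in part. The calls below stand beside 8.28% of all tested features called higher by edgeR and 5.05% called lower. Each marker list is short, so little can be read from its count. Cardiomyocyte markers, led by Myh6 and Tnnt2, summed to between 58670 and 66810 CPM in con-named and between 60620 and 67070 CPM in HF-named libraries, and 1 of 8 was called higher and 4 lower. Fibroblast markers, led by Gsn and Dcn, summed to 1401 to 1783 and 1141 to 1396 CPM, with 2 of 7 called lower. Endothelial markers, led by Fabp4 and Cdh5, summed to 1142 to 1495 and 890.8 to 1362 CPM, with 2 of 6 called lower and 4 lower at an unadjusted edgeR p under 0.05. Macrophage markers, led by Lyz2 and Csf1r, summed to 178.5 to 241.8 and 140.5 to 193.8 CPM, with 3 of 6 called lower and 5 lower at an unadjusted edgeR p under 0.05. Mural markers, led by Rgs5 and Abcc9, summed to 1094 to 1230 and 1265 to 1431 CPM, with 0 of 5 called by edgeR, 3 higher at its unadjusted p under 0.05, and 1 and 2 called higher by limma-voom and DESeq2. The part of these shifts in the Acot1 and Acot2 values was not tested. For fat, 7 of 8 adipocyte markers had a mean under 0.1 CPM in both groups; the exception, Cidea, stood at 23.8 ± 2.65 and 30.0 ± 2.11 CPM (SD, n = 6 each) and was called higher.

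In the authors' deposited table, all 10 members had the same sign as here, and their log2 fold changes differed by at most 0.0050. The authors' deposited table gives Acot2 a log2 fold change of 0.83 with an adjusted p of 3.77e-08 and Acot1 0.75 with an adjusted p of 0.0312, and no other member under 0.05.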

How the data were processed

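Poly-A-selected RNA from mouse ventricle was sequenced in 12 libraries, 6 per library name, per the labels. The deposited table holds raw read counts per gene, not normalized, and the authors' FPKM values, which were used only to check the order of levels. The submitters' processing notes list HTSeq 0.9.1, HISAT2 2.0.5, cutadapt 1.15 and the build mm10, without roles. No annotation release, strand setting or treatment of multi-mapping reads is given in the sources used here. The authors' deposited comparison holds group means of scaled counts (a signal), log2 fold changes and p-values.

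Counts were fitted once over the whole table in edgeR 4.0.16 (R 4.3.3) with filterByExpr, TMM factors, a group term and the quasi-likelihood test, two-sided, which left 15114 of 54949 features. The script was tested on simulated counts. Alternatives were RLE factors, library totals, other filters, a replicate block, each library left out, limma-voom (limma 3.58.1) and DESeq2 1.42.0. Lengths, positions and coding sequences came from GENCODE M21 and promoters from RefSeq.

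The members and lists were chosen with earlier results of these data known. Named genes were all 10 members; from each related list the 3 of smallest p if at least 3 passed, otherwise those that passed, otherwise the 1 of smallest p; all tested other thioesterases; the 5 genes most correlated with Acot2; and the 2 most abundant of each marker list that is described. A gene that this rule names is not reported here. Correlations used exact permutation tests, two-sided. Over 6 libraries, a rho cannot give a p below 0.00278, and an r has a lower floor. A count of 3 corresponds to 0.142 to 0.217 CPM, which covers counting error only. Atrial, erythroid and Schwann and neuron markers gave 0 calls in edgeR, limma-voom and DESeq2, beside 13.3% of all tested features called by edgeR. At an unadjusted edgeR p under 0.05, 3 erythroid markers were higher and 0 of the others. Summed CPM of these lists, in that order, were 63.7 to 127.4 and 23.1 to 195.2, 291.7 to 498.3 and 318.1 to 630.1, and 9.85 to 15.2 and 10.8 to 14.2, con-named before HF-named.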

Additional observations from a re-analysis of the deposited data

Results flagged for a closer look

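In the con-named group, 1 library stood apart from the other 5 for each of 2 members. Acot4 was lowest in con-named replicate 3, at 1.601 CPM against 2.76 CPM in the nearest library, a gap of 0.758 of the group's range, which exceeds Dixon's 95% critical value for 6 samples. Acot7 was lowest in con-named replicate 5, at 57.6 CPM against 63.6 CPM in the nearest library, a gap of 0.695 of the range, also beyond that value. Over the 20 groups looked at, 10 members in each of 2 groups, chance flags about 1 in 20.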

How the results depend on the processing

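Acot1 and Acot2 kept their direction and were called under all 20 alternative fits. For Acot1 the log2 fold change was 0.63 without HF-named replicate 5, the lowest, and 0.86 without con-named replicate 1, the highest, with an edgeR adjusted p of 0.0411 at most over the alternatives, and that of Acot2 from 0.73 to 0.92 over the libraries left out. With library totals in place of TMM factors, the median of all tested features moved from -0.01 to -0.13, 3065 features were called against 2016, and the share of higher calls fell from 62.1% to 15.8%. Members called then numbered 4 against 2, with Acot7 (-0.22) and Acot13 (-0.18) called lower, and Acot9 turned to -0.0394. Acot7 was also called without con-named replicate 5 (-0.15, edgeR adjusted p = 0.0425) and Acot11 without con-named replicate 6 (0.28, edgeR adjusted p = 0.0358). Them4, near 0, ranged from -0.0609 to 0.028 over the libraries left out, and turned positive without con-named replicate 3 (0.0123), HF-named replicate 1 (0.028) or HF-named replicate 2 (0.0065). Leaving out each library gave 1355 to 2550 features called, 2 to 3 members and 16 to 22 different related genes, against 17.

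The replicate block, with the library number as a term, called 1131 features and the same number of members, 2. Deviations of same-numbered libraries from their group means had correlations from -0.161 to 0.090, and 2 of 6 con-named libraries correlated best with their own number. These values show no strong pairing by number. Whether same-numbered libraries share an origin cannot be told from them. Depth limits Acot3 and Acot4 most, with as few as 16 and 24 counts in a library.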
